A study of Homo sapiens with 14 samples.

Results

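TEX264 and 8 other receptors of ER-phagy were followed in 3 prostate cancer cell lines treated with a small molecule that blocks CDK8 and CDK19, the kinases of the Mediator complex. The 9 genes, TEX264, SEC62, RTN3, CCPG1, CALCOCO1, RETREG1, RETREG2, RETREG3 and ATL3, were found by gene symbol among the 62703 genes of the count table. The group was chosen on measured values, since TEX264 was selected for its response to the inhibitor in these libraries and the others were added as receptors of the same process. The inhibitor response of TEX264 is therefore given as a description without a test. Of the 9 genes, 7 passed the filter on low counts, and CCPG1 and CALCOCO1 did not.

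RNA came from LNCaP (enzalutamide-sensitive), 22Rv1 (enzalutamide-resistant) and PC3 prostate cancer cells, which had been given 1.5 µM SEL120-34A or its vehicle DMSO for 3 days. LNCaP and 22Rv1 had 3 libraries per arm, and PC3 had 1 per arm. Sequencing used BRB-seq, which gives each sample a barcode and reads the 3′ ends of its transcripts. All are established lines grown as monocultures, and the study's methods describe replicates as biological in general. The labels do not say that the libraries of an arm were separate cultures, so p-values measure the spread between these libraries.

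ER-phagy is the selective delivery of pieces of the endoplasmic reticulum (ER) to the lysosome. Its receptors sit in the ER membrane, or are recruited to it, and carry a short motif that binds the ATG8 proteins (LC3 and GABARAP) on the forming autophagosome, so that a piece of ER is enclosed together with its receptor. TEX264 is a single-pass ER membrane receptor, RTN3 acts on tubules, RETREG1 (FAM134B) on sheets, and the pathway is best known from starved cells and from recovery after ER stress.

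TEX264 (ENSG00000164081.13) lies on chromosome 3 from 51662693 to 51704323 on the plus strand of GRCh38. Its promoter is shown because TEX264 is the receptor on which the results turn. The sequence is the RefSeq promoter on GRCh38.p14, plus strand, chr3:51671002-51671251, the 250 bases before the RefSeq start (which lies inside the GENCODE span just given), with capitals marking the GC box (GGGCGG on either strand), the motif read by Sp1-type factors.

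TEX264 promoter: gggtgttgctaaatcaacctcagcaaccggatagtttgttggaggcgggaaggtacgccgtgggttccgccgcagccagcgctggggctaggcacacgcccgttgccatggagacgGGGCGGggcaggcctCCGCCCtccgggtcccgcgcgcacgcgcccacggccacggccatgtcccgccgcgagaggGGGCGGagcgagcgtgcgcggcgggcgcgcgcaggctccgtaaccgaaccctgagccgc

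The window held 3 GC boxes and 73.2% G or C, against a median of 58.0% over 35116 RefSeq promoters of this length. It also held 35 CG pairs, against a median of 11. Promoters were found for 8 of the 9 genes, and CALCOCO1 had no entry. All 8 held a GC box, which 42.6% of all promoters did. An E-box (CACGTG) was found in RETREG2 alone (6.3% of all promoters), a CCAAT box (CCAAT) in RTN3 and RETREG3 (32.0%), and the half-site of steroid receptors (AGAACA) in SEC62 alone (12.4%). Both strands were searched, and none of these 3 motifs was in the TEX264 window.

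Levels are given as CPM, the counts of a gene scaled to a common library size with a correction for composition. They come from 3′ tags and are compared between samples within a gene, not between genes. Total counts per library ran from 246063 to 909176, so 3 counts, the floor used here for a gene with no reads, stood for 3.27 CPM in the deepest and 12.9 CPM in the shallowest library. The treated 22Rv1 libraries (246063 to 368778 counts) were all shallower than their controls (476455 to 777207). As a check of the line labels, VIM, a mesenchymal filament gene, was at 1262 and 1110 CPM in PC3 and at most 51.5 CPM elsewhere. Because RNA was taken from whole wells, fewer cells carrying a transcript and less transcript per cell cannot be told apart.

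TEX264 was higher in 22Rv1 than in LNCaP or PC3, and in 22Rv1 alone its treated libraries lay above the controls. In 22Rv1, TEX264 was at 355, 331 and 416 CPM in the 3 DMSO libraries. After SEL120-34A, TEX264 was at 921, 936 and 716 CPM in 22Rv1, from 334, 218 and 251 counts. Every treated 22Rv1 library was above every control, which held for 12.4% of all tested genes. The means were 368 ± 43.8 and 857 ± 123 CPM (SD, n = 3 each). The fitted change was 1.22 ± 0.14 (log2, SE), or 2.33-fold. TEX264 was chosen on this response, which can enlarge the estimate, so no interval is given.

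In LNCaP, TEX264 was at 146, 202 and 157 CPM with DMSO. With SEL120-34A, TEX264 was at 172, 157 and 158 CPM in LNCaP. The 2 arms overlapped, with means of 168 ± 29.3 and 162 ± 7.96 CPM (SD, n = 3 each). The log2 change was 0.00064 ± 0.17 (SE), and its 95% interval ran from -0.34 to 0.34. The inhibitor effect in LNCaP minus that in 22Rv1 was -1.22 ± 0.22 (log2, SE), which is a description for the same reason. In PC3, TEX264 had 108 counts (118 CPM) with DMSO and 60 counts (105 CPM) with SEL120-34A. The log2 ratio of these single libraries was -0.16, and its 95% counting interval, from -0.64 to 0.31, included 0.

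In order of level, the treated 22Rv1 libraries stood first and the 22Rv1 controls second. The LNCaP controls and treated LNCaP libraries followed, differing from each other by less than their SD, and the PC3 libraries were lowest. The treated 22Rv1 libraries were also the shallower ones. With all libraries thinned to the smallest total, the log2 change of TEX264 in 22Rv1 was 1.24, and with library totals in place of composition scaling it was 1.07. Over all 22 alternatives it ran from 1.07 to 1.35.

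**Figure D1:**
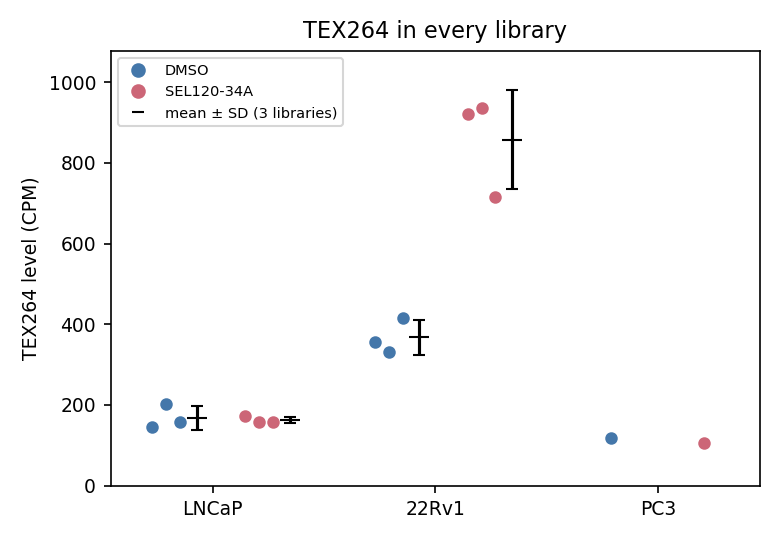
TEX264 level in CPM (vertical axis, linear from 0) in each library of LNCaP, 22Rv1 and PC3 (horizontal axis) with DMSO or SEL120-34A. Points are libraries and bars are the mean ± SD of 3 libraries. The treated 22Rv1 libraries lie between 716 and 936 CPM, above the 22Rv1 controls at 331 to 416, and LNCaP stays at 146 to 202 in both arms.

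The lines were also compared without the inhibitor, which asks how the receptors differ between LNCaP and 22Rv1. With a single enzalutamide-sensitive and a single resistant line, drug response cannot be told apart from other differences between the lines. TEX264 was lower in LNCaP DMSO than in 22Rv1 DMSO libraries by 1.16 on the log2 scale (log2 change -1.16 ± 0.15, SE, 2.23-fold, adjusted p = 2.24e-08 by edgeR's quasi-likelihood test), and the 3 libraries of each line did not overlap. The adjusted p ranged from 2.56e-11 to 1.02e-04 over the 21 alternatives. These DMSO libraries are also the controls of the inhibitor response on which TEX264 was chosen, so its p-value here is not independent of that choice. Of the 7 tested receptors, 2 passed the threshold of 0.05 here (TEX264 and RETREG2), against 49.0% of all 7086 tested genes. The libraries did not overlap for 2 of 7 (TEX264 and RTN3), against 56.4% of all genes. Counts of 2 among 7 are a description and no result about the receptors, and TEX264, which is in both, was chosen on its inhibitor response.

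None of the other tested receptors passed for the inhibitor. In LNCaP, 0 of the 6 other tested receptors passed, against 2.77% of all genes (196 of 7086). Their log2 changes ran from -0.34 to 0.65 with a median of 0.16, against a median of 0.00076 over all genes, and 1 of the 6 (RETREG2) had an unadjusted p under 0.05. In 22Rv1, 0 of 6 passed, against 5.70% of all genes (404 of 7086). There the changes ran from -0.64 to 0.18 with a median of 0.07, against 0.0025 over all genes, and none had an unadjusted p under 0.05. For the difference between the lines, 0 of 6 passed, against 0.734% of all genes (52 of 7086), and 1 (SEC62) had an unadjusted p under 0.05. DESeq2 and limma-trend also called none of the 6 in these 3 comparisons.

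SEC62, a subunit of the protein translocation channel that also serves as the receptor for ER removal after stress, did not pass for the inhibitor in either line. In 22Rv1, SEC62 was at 37.3, 52.4 and 37.0 CPM with DMSO. With SEL120-34A, SEC62 was at 22.0, 21.5 and 34.2 CPM in 22Rv1, from 8, 5 and 12 counts. No treated library reached a control, but the change of -0.64 ± 0.33 (log2, SE) did not pass (adjusted p = 0.288). It was the only one of the 6 whose 22Rv1 arms did not overlap, where 23.0% of all genes had such arms. In LNCaP, SEC62 was at 35.2, 47.1 and 37.8 CPM with DMSO and at 58.5, 48.8 and 35.9 CPM with SEL120-34A. These arms overlapped, and the log2 change was 0.26 ± 0.29 (SE, adjusted p = 0.761). In LNCaP none of the 6 had arms without overlap, against 19.4% of all genes. The difference between the 2 effects was 0.91 ± 0.44 (log2, SE), with a 95% interval from 0.02 to 1.80 and an adjusted p of 0.424. SEC62 did not differ detectably between untreated lines (log2 change -0.09 ± 0.26, SE, adjusted p = 0.794).

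RTN3, whose long isoform fragments ER tubules, had the most counts of the other receptors. In LNCaP, RTN3 was at 276, 254 and 296 CPM with DMSO and at 269, 290 and 310 CPM with SEL120-34A. In 22Rv1, RTN3 was at 238, 238 and 203 CPM with DMSO and at 267, 266 and 225 CPM with the inhibitor. The arms overlapped in both lines, with log2 changes of 0.10 ± 0.14 and 0.18 ± 0.15 (SE). Their 95% intervals were -0.18 to 0.39 and -0.12 to 0.48 (adjusted p = 0.820 and 0.569). Without the inhibitor, every LNCaP library was above every 22Rv1 library, with means of 275 ± 21.2 and 226 ± 20.1 CPM (SD, n = 3 each). That difference of 0.31 ± 0.14 (log2, SE) missed the threshold (adjusted p = 0.0612).

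The RETREG family shares the reticulon-homology domain that wedges into and curves the ER membrane. RETREG1, the sheet receptor mutated in a hereditary sensory neuropathy, was at 36.7 to 50.3 CPM in LNCaP DMSO and at 31.2 to 70.5 CPM in treated LNCaP libraries. In 22Rv1, RETREG1 was at 26.2 to 39.4 CPM with DMSO and at 30.0 to 34.2 CPM with SEL120-34A. The log2 changes were 0.21 ± 0.29 and 0.02 ± 0.34 (SE, adjusted p = 0.820 and 0.990). RETREG1 was close to absent in PC3, with 3 counts in each library (3.27 and 5.26 CPM), which was lower than in any LNCaP or 22Rv1 library. With 1 library per arm, that difference has no replicate check.

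RETREG2, the family member also known as FAM134A, was at 33.8, 65.5 and 55.9 CPM in LNCaP DMSO libraries. With the inhibitor, RETREG2 was at 105, 70.5 and 63.4 CPM in LNCaP. The arms overlapped, and the log2 change of 0.65 ± 0.27 (SE) did not pass (adjusted p = 0.247). In 22Rv1, RETREG2 was at 64.8, 74.9 and 83.5 CPM with DMSO and at 71.7, 120 and 62.8 CPM with SEL120-34A. These arms overlapped too (log2 change 0.12 ± 0.26, SE, adjusted p = 0.853). Without the inhibitor RETREG2 was lower in LNCaP by -0.59 ± 0.25 (log2, SE, adjusted p = 0.0448), although the highest LNCaP library lay above the lowest 22Rv1 library. This call was lost in 8 of 21 alternatives, among them the fits without LNCaP DMSO replicate 1 (adjusted p = 0.312), 22Rv1 DMSO replicate 2 (0.0556), 22Rv1 DMSO replicate 3 (0.162) and 22Rv1 SEL120-34A replicate 1 (0.05005). The adjusted p ran from 0.00721 to 0.312 over the 21.

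RETREG3, also known as FAM134C, was the lowest-counted receptor that was tested. RETREG3 was at 19.6 to 28.8 CPM in LNCaP DMSO, 11.7 to 25.3 in treated LNCaP, 15.7 to 28.6 in 22Rv1 DMSO and 19.3 to 42.9 CPM in treated 22Rv1 libraries. All arms overlapped, with log2 changes of -0.34 ± 0.42 in LNCaP and 0.16 ± 0.40 in 22Rv1 (SE, adjusted p = 0.794 and 0.883). In PC3, RETREG3 had 20 counts with DMSO and 5 with SEL120-34A, a log2 ratio of -1.02 with a 95% counting interval from -3.08 to 0.14.

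ATL3, a dynamin-like GTPase that fuses ER tubules and binds GABARAP proteins, did not pass in any comparison. ATL3 was at 40.5 to 60.2 CPM in LNCaP DMSO, 35.1 to 48.6 in treated LNCaP, 41.7 to 56.9 in 22Rv1 DMSO and 30.0 to 55.1 CPM in treated 22Rv1 libraries. PC3 stood at 45.7 and 45.6 CPM. The log2 changes were -0.15 ± 0.28 in LNCaP and -0.00090 ± 0.31 in 22Rv1 (SE, adjusted p = 0.891 and 1), and between untreated lines -0.02 ± 0.25 (adjusted p = 0.963). The 95% intervals of the inhibitor changes, -0.72 to 0.43 and -0.63 to 0.63, do not show that ATL3 was the same in both arms. ATL3 and RTN3 lie head to head on chromosome 11, 9524 bases apart.

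The 2 receptors below the filter were seen in few reads. CCPG1, an ER-resident receptor induced by the unfolded protein response, had 13, 4 and 10 counts in LNCaP DMSO and 2, 7 and 12 in treated LNCaP libraries. In 22Rv1, CCPG1 had 1, 1 and 4 counts with DMSO and 4, 0 and 1 with SEL120-34A. When the filter was dropped (21395 genes), edgeR called CCPG1 higher in LNCaP DMSO than in 22Rv1 DMSO libraries (adjusted p = 0.00292). Its mean in 22Rv1 DMSO, 2.87 CPM, was below the 3-count floor of 3.58 to 5.89 CPM there, so no fold is given. The inhibitor changes of CCPG1 did not pass (adjusted p = 0.941 in LNCaP and 0.881 in 22Rv1). CALCOCO1, a soluble receptor brought to the ER by VAP proteins, had 0 to 7 counts in every library, and no comparison passed without the filter (adjusted p = 0.873 in LNCaP, 0.940 in 22Rv1 and 0.604 between untreated lines). A count of 0, as for both genes in 1 treated 22Rv1 library each, does not show absence at these depths.

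**Figure D2:**
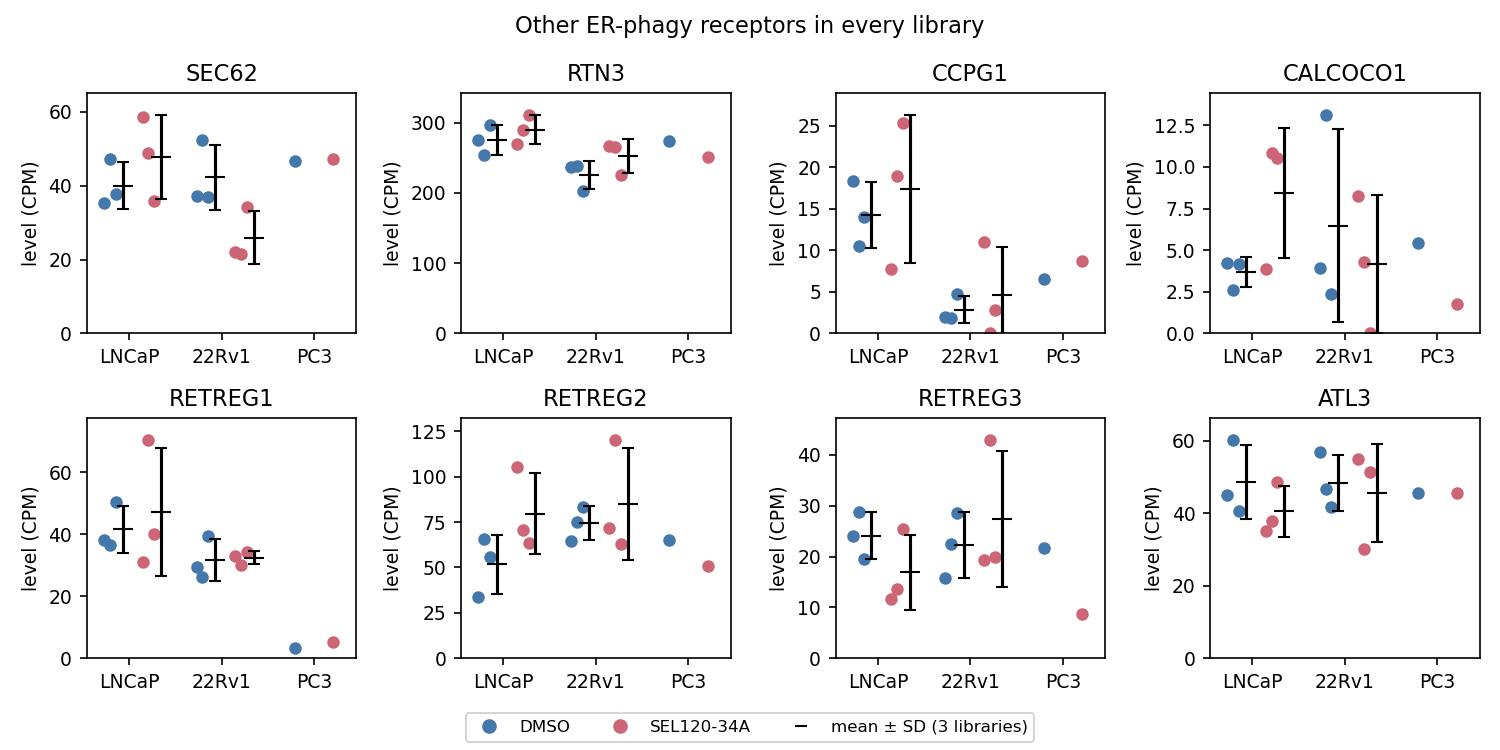
Level in CPM (vertical axes, linear from 0, each with its own range) of the 8 other receptors in every library, by cell line and arm. Points are libraries and bars are the mean ± SD of 3 libraries, cut at 0. SEC62 shows 22Rv1 arms that do not overlap, and RETREG1 is at 3.27 and 5.26 CPM in PC3.

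In PC3, the log2 ratios of the 8 receptors with more than 3 counts in either library ran from -1.02 (RETREG3) to 0.28 (CCPG1). Every counting interval included 0, also that of RTN3, the receptor with the most counts in PC3 (252 and 143 counts, log2 ratio -0.13, interval -0.44 to 0.17). A counting interval covers neither culture nor library preparation.

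**Figure D3:**
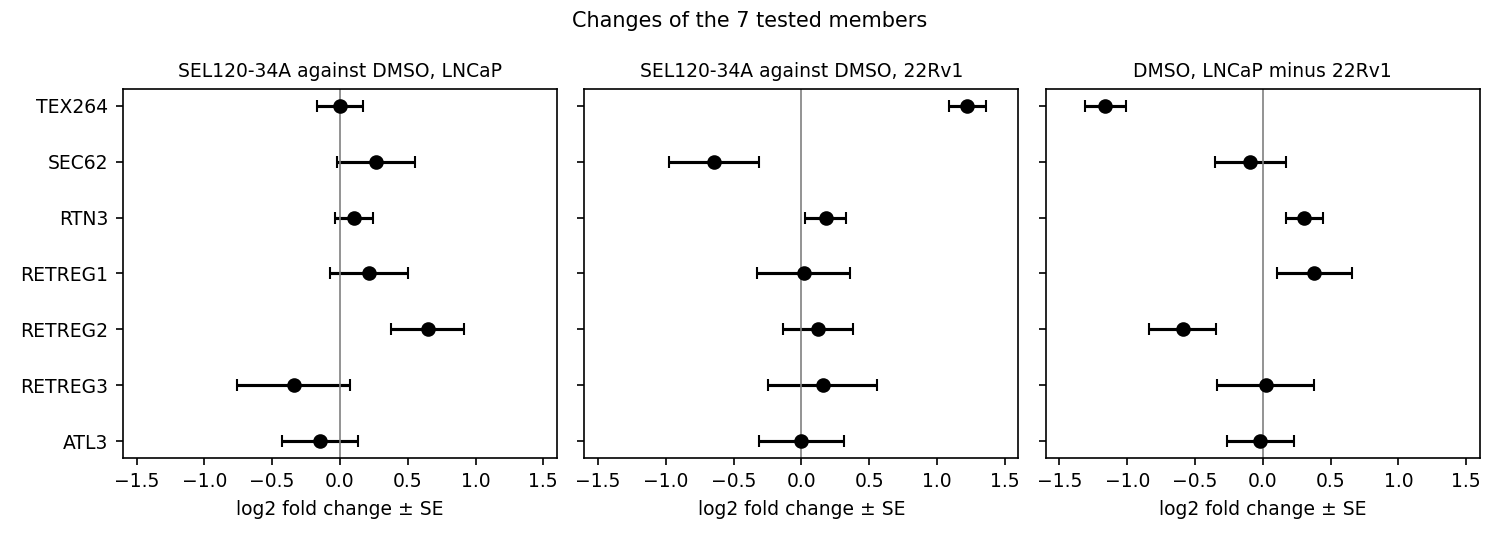
Log2 fold change ± SE (horizontal axes) of the 7 tested receptors in 3 comparisons, SEL120-34A against DMSO in LNCaP, the same in 22Rv1, and LNCaP DMSO minus 22Rv1 DMSO. TEX264 stands at 1.22 in 22Rv1 and at -1.16 between untreated lines, and in the inhibitor comparisons the others lie between -0.64 and 0.65.

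Over the 14 libraries, the levels of the other receptors followed TEX264 loosely or in the opposite direction. Pearson's r on log2 CPM with TEX264 was 0.49 for RETREG2, 0.46 for RETREG3, 0.29 for RETREG1, 0.02 for ATL3, -0.12 for CALCOCO1, -0.45 for RTN3, -0.62 for CCPG1 and -0.73 for SEC62. The 5 genes most like TEX264 among 3885 with a mean of at least 20 counts were TKT (r = 0.98), CYB5B, TMA7, PEBP1 (each 0.97) and IDI1 (0.97). TKT, a transketolase of the pentose phosphate pathway, was at 608 CPM in LNCaP DMSO, 848 in 22Rv1 DMSO and 1276 in treated 22Rv1 libraries on average. IDI1, an isomerase of sterol synthesis, was at 85.3, 247 and 442 CPM in the same groups. PEBP1, a phosphatidylethanolamine-binding inhibitor of RAF kinase signalling, was at 1168, 1994 and 3716 CPM. The 14 points share lines, arms and depth. These 5 genes were picked for their r with TEX264, so levels that follow it were fixed by the pick. The r values and the levels are given as a description. Within the 6 LNCaP libraries alone, where TEX264 varied little, r was 0.70 for TKT, 0.61 for TMA7, 0.56 for IDI1, 0.37 for CYB5B and -0.39 for PEBP1.

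Genes around TEX264 were read in the same fits. Within 500000 bases on either side, 37 genes were annotated and 12 tested. In 22Rv1, 1 of the 12 passed for the inhibitor, against 5.70% of all genes, namely RPL29 (log2 change 0.43, adjusted p = 0.0236), a ribosomal protein gene with many pseudogene copies that lies 289199 bases away. In LNCaP, 0 of 12 passed, against 2.77% of all genes. Between the untreated lines, 5 of 12 passed, against the background of 49.0%, and 4 were lower in LNCaP, namely MANF (-1.81), PCBP4 (-3.20), ALAS1 (-0.89) and RAD54L2 (-1.16). The last rests on few reads, with 14, 7 and 12 counts in the LNCaP DMSO libraries. RAD54L2 overlaps the GENCODE span of TEX264 on the same strand, ending at 51668667, before the RefSeq start behind the promoter shown above, and had 186 counts in all 14 libraries together. It did not pass for the inhibitor in 22Rv1 (log2 change -0.32, adjusted p = 0.680).

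The wider pathway was read from 8 lists with 105 genes in all, of which 70 were tested. They covered ATG8 proteins, partners of ER-phagy, the ufmylation enzymes that mark the ER surface, ER-shaping proteins, the translocon, autophagosome formation, other selective autophagy receptors, and the ER stress response. In LNCaP, 0 of 70 passed for the inhibitor by edgeR, against 2.77% of all genes, and 8 had an unadjusted p under 0.05. In 22Rv1, 7 of 70 (10%) passed, against 5.70% of all genes. Of these 3 rose and 4 fell, where 4.15% of all genes rose and 1.55% fell. The lists were chosen with earlier results of these data known, so these shares are a description. For the difference between the lines, 0 of 70 passed, and 7 had an unadjusted p under 0.05, so a call in 22Rv1 does not show that LNCaP responded otherwise.

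Among the genes that rose in 22Rv1, ATG12 and GABARAPL2 belong to the conjugation systems that build the autophagosome. ATG12, the ubiquitin-like protein joined to ATG5, was at 31.4, 41.2 and 44.1 CPM with DMSO and at 113, 107 and 82.7 CPM with SEL120-34A. Its arms did not overlap, and it rose by 1.35 ± 0.25 (log2, SE, adjusted p = 3.17e-04), a call kept in all 22 alternatives. In LNCaP, ATG12 gave 0.34 ± 0.33 (adjusted p = 0.736), and the difference between lines was -1.01 (adjusted p = 0.331). ATG12 was 1 of 10 tested genes of autophagosome formation, and the other 9 did not pass.

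GABARAPL2, an ATG8 protein of the kind that binds ER-phagy receptors, was at 222, 144 and 186 CPM in 22Rv1 DMSO. With SEL120-34A, GABARAPL2 was at 320, 275 and 231 CPM in 22Rv1. It rose by 0.60 ± 0.17 (log2, SE, adjusted p = 0.0282), and the call was lost in 8 of 22 alternatives. Among these were the fits without 22Rv1 DMSO replicate 2 (adjusted p = 0.161) or 3 (0.0875) and without 22Rv1 SEL120-34A replicate 1 (0.231) or 2 (0.0873). The call was also lost with library totals (0.0982), without a filter (0.125), by DESeq2 (0.0524) and by limma-trend (0.144). The other 2 tested ATG8 genes, MAP1LC3A and MAP1LC3B, did not pass. SSR4, a subunit of the translocon-associated complex, rose by 0.50 ± 0.14 (adjusted p = 0.0302) and was the only one of 8 translocon genes to do so. That call was lost in 10 of 22 alternatives, among them those without 22Rv1 DMSO replicate 1 (adjusted p = 0.102), 2 (0.0811) or 3 (0.0869) and without 22Rv1 SEL120-34A replicate 2 (0.366).

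The 4 genes that fell in 22Rv1 encode proteins that help others fold in the ER. HSPA5, the chief ER chaperone BiP, was at 738, 751 and 572 CPM with DMSO and at 389, 245 and 408 CPM with SEL120-34A. Its arms did not overlap, and its log2 change was -0.94 ± 0.15 (SE, adjusted p = 2.72e-05). HSP90B1, the ER form of HSP90, fell by 0.57 (adjusted p = 0.00347), and PDIA4, a protein disulfide isomerase, fell by 0.55 (adjusted p = 0.00393). These 3 were called in all 22 alternatives, and 12 of the 15 tested genes of the ER stress list did not pass. HSPA5 is named here after its values were seen, and that list was drawn with earlier results of these data known. CANX, the lectin chaperone calnexin that links cargo to RETREG1, fell by 0.59 (SE 0.15, adjusted p = 0.0105), from 393 ± 32.8 to 256 ± 51.1 CPM (SD, n = 3 each). It was 1 of 7 tested partners, and the call was lost in 3 of 22 alternatives, which were thinning (adjusted p = 0.0722) and the fits without 22Rv1 SEL120-34A replicate 1 (0.0710) or 2 (0.124). In LNCaP none of the 4 passed by edgeR. The changes there were -0.22 for HSPA5 (adjusted p = 0.599), 0.05 for HSP90B1 (0.935), -0.42 for PDIA4 (0.126) and -0.14 for CANX (0.788). LNCaP minus 22Rv1 was 0.72, 0.62, 0.13 and 0.44 in the same order (adjusted p = 0.145, 0.162, 0.847 and 0.461). These falls are therefore not shown to be particular to 22Rv1.

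**Figure D4:**
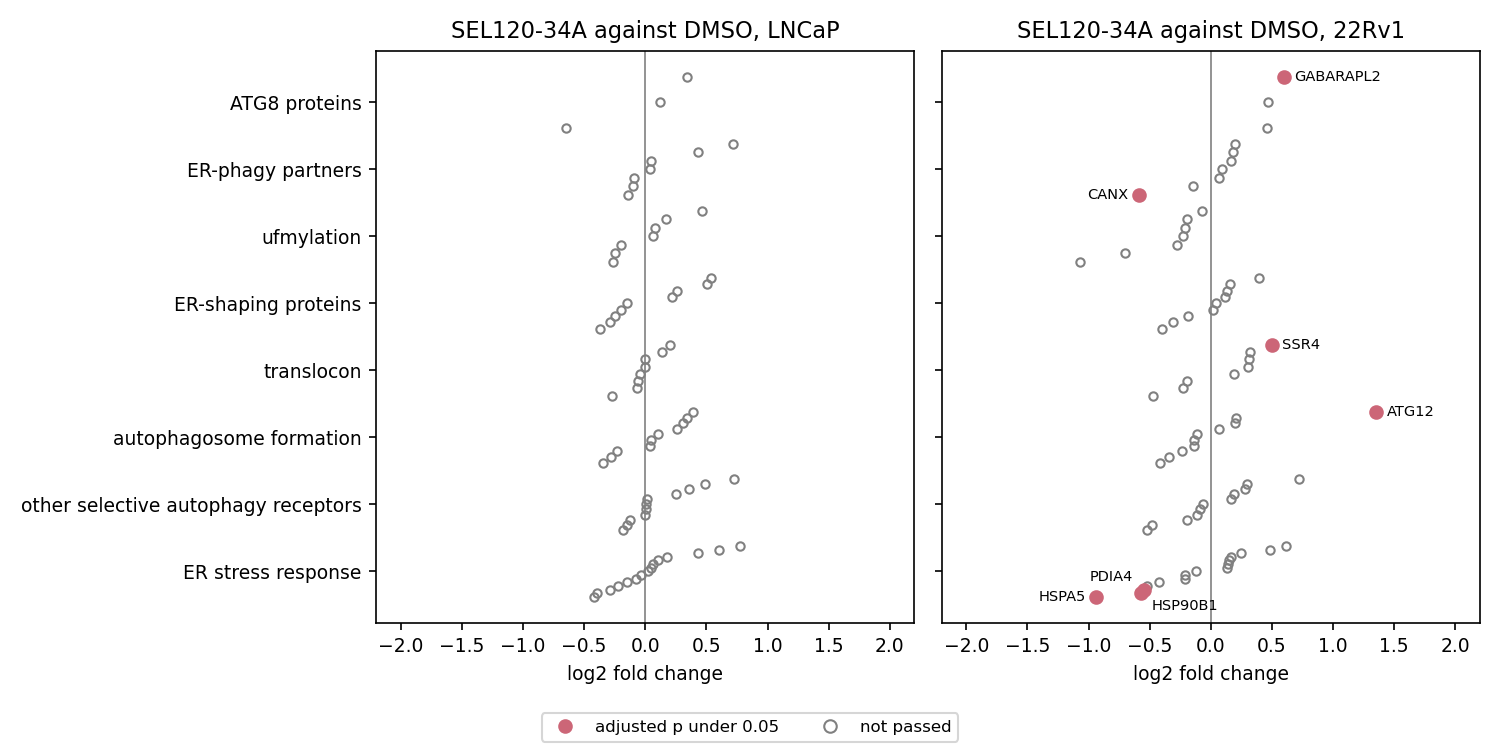
Log2 fold change for SEL120-34A against DMSO (horizontal axes) of the 70 tested genes of the 8 lists (vertical axis), in LNCaP and in 22Rv1. Filled points passed an adjusted p of 0.05 over all 7086 genes, which is 0 genes in LNCaP and the 7 named genes in 22Rv1.

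**Figure D5:**
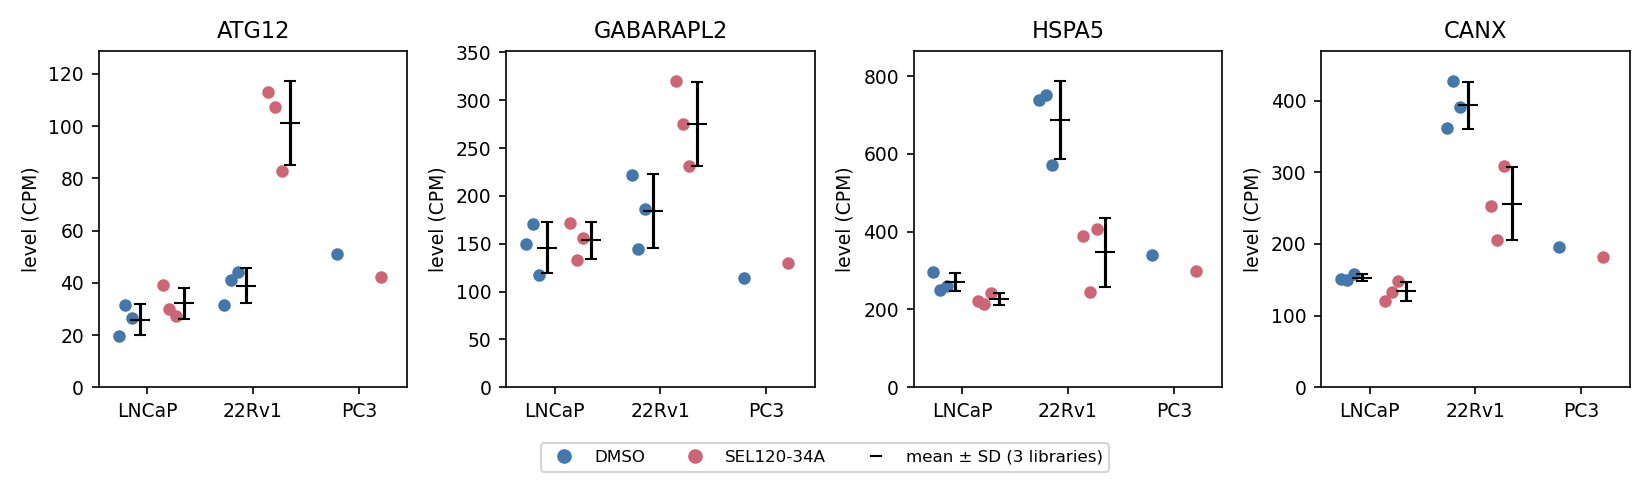
Level in CPM (vertical axes, linear from 0) of ATG12, GABARAPL2, HSPA5 and CANX in every library by cell line and arm, with the mean ± SD of 3 libraries. In 22Rv1 the treated libraries lie above the controls for ATG12 and GABARAPL2 and below them for HSPA5 and CANX.

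Between the untreated lines, 40 of the 70 pathway genes passed (57.1%, against 49.0% of all tested genes), 18 of them higher in LNCaP and 22 higher in 22Rv1. Over all genes, 24.0% were higher and 25.0% lower in LNCaP. The counts of list genes include REEP6, FUNDC1 and MAP1LC3A, which passed the filter through the line where they were higher. Of the 9 tested ER-shaping genes, 6 were higher in LNCaP and 1 lower. RTN4, a reticulon of ER tubules, stood at 99.8 ± 9.81 CPM in LNCaP and 21.6 ± 1.69 in 22Rv1 (log2 change 2.18, adjusted p = 7.50e-10). REEP3 and REEP5, which curve the ER membrane, were higher in LNCaP by 1.73 and 0.92. REEP6, of the same family, was also called higher, but its level in 22Rv1 DMSO (2.64 ± 3.04 CPM, against 36.3 ± 10.9 in LNCaP) was below the 3-count floor of 3.58 to 5.89 CPM there, so it passed the filter through LNCaP and no fold is given. Of the 15 tested genes of the ER stress list, 10 were lower in LNCaP and 1 higher (ATF4, 0.39). The lower ones included HSP90B1 (-1.91), MANF (-1.81), CRELD2 (-1.75) and PDIA4 (-1.44). The call of ATF4, a transcription factor of the stress response, was lost in 4 of 21 alternatives, among them those without LNCaP DMSO replicate 2 (adjusted p = 0.0751) and 22Rv1 DMSO replicate 3 (0.106).

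Among 11 other autophagy receptors tested, 4 were called higher and 3 lower in LNCaP. Of the 3 lower, FUNDC1 passed the filter through 22Rv1, and PHB2 (log2 change -0.28, adjusted p = 0.0488) lost its call in 12 of 21 alternatives. The latter included the fits without LNCaP DMSO replicate 1 (adjusted p = 0.107) or 2 (0.192), 22Rv1 DMSO replicate 1 (0.0931) or 3 (0.123), and 22Rv1 SEL120-34A replicate 1 (0.0729), 2 (0.0505) or 3 (0.0580). SQSTM1 (p62), the receptor for ubiquitinated cargo, was at 195 ± 11.8 CPM in LNCaP and 1303 ± 108 in 22Rv1 (SD, n = 3 each, log2 change -2.74, adjusted p = 1.21e-20). The mitophagy receptors BNIP3 and BNIP3L were higher in LNCaP by 1.41 and 1.14. FUNDC1, another mitophagy receptor, had 0 counts in all 3 LNCaP DMSO libraries, where 3 counts would be 4.19 to 7.85 CPM, and stood at 23.2 ± 9.30 CPM in 22Rv1 DMSO. Of the 3 tested ATG8 genes, MAP1LC3A and MAP1LC3B were called lower in LNCaP. MAP1LC3B (log2 change -0.96) shares sequence with the copy MAP1LC3B2. MAP1LC3A stood at 9.50 ± 3.74 CPM in LNCaP DMSO, close to the 3-count floor, and at 49.3 ± 5.44 CPM in 22Rv1 DMSO (SD, n = 3 each). It passed the filter through 22Rv1, so no fold is given.

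The remaining lists also held calls between the untreated lines. CANX was lower in LNCaP (-1.36) and PGRMC1, an ER membrane protein that acts with RTN3, was higher (0.65) among the 7 partners. UFC1 (-0.76), an enzyme of ufmylation, was lower in LNCaP. The call of PGRMC1 was lost in limma-trend alone (adjusted p = 0.0560). Of 8 translocon genes, 4 were higher in LNCaP, with SSR3 at 1.32, SEC61B at 0.99 and SSR1 at 0.44, and 1 (SSR2, -1.49) was lower. SSR1 was lost in 6 of 21 alternatives, among them those without LNCaP DMSO replicate 1 (adjusted p = 0.0860) and 22Rv1 DMSO replicate 1 (0.147) or 3 (0.0541). The others were library totals (0.242), thinning (0.238) and DESeq2 (0.0551).

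Of the 10 tested genes of autophagosome formation, 2 were higher and 2 lower in LNCaP. WIPI2, which binds the lipid of the forming membrane, was lower (-1.17) and kept its call in every alternative. BECN1, a subunit of the lipid kinase that starts the process, was higher (0.95), and was lost in 4 of 20 alternatives, among them those without LNCaP DMSO replicate 1 (adjusted p = 0.133) and 22Rv1 DMSO replicate 3 (0.0670). ATG4D, a protease of ATG8 proteins, was lower (-0.57), and was lost in 2 of 21, by DESeq2 (adjusted p = 0.0553) and without LNCaP DMSO replicate 2 (0.0519).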

How the data were processed

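The authors treated LNCaP and 22Rv1 cells (3 libraries per arm) and PC3 cells (1 per arm) and made BRB-seq libraries. Per the labels and methods, the reads were counted per gene with STARsolo on GRCh38.p13 with GENCODE release 43. The deposited raw counts cover 62703 genes. The authors also deposited log2 CPM values for 9638 genes, used here for 1 alternative. Whether molecular identifiers were collapsed and which strand was counted are not given in the sources used here. The PC3 counting intervals and the floors take every count as a separate molecule, which could not be checked. Intervals of the fitted changes also hold the spread between libraries. Reads of overlapping genes (RAD54L2 for TEX264, CNPPD1 for RETREG2, TUBG1 for RETREG3) may not have been separated.

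The counts of the 12 LNCaP and 22Rv1 libraries were fitted in 1 model with edgeR 4.0.16 in R 4.3.3 (TMM, filterByExpr, 7086 genes, quasi-likelihood F-test, 8 residual degrees of freedom, common biological variation 11.1%). P-values were adjusted by Benjamini and Hochberg's method over these 7086 genes, and the threshold was 0.05. CPM used TMM factors over all 14 libraries. PC3 log2 ratios used a prior count of 2 and exact 95% binomial counting intervals. The libraries of an arm differed beyond counting error (chi-square per degree of freedom 1.29 to 2.44), and none was counted as a duplicate. The model was tested on simulated data.

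The members, lists and tests were chosen with earlier results of these data known. All 9 members are named. Each list contributes up to 4 members past the threshold, by smallest adjusted p, and the 5 genes most correlated with TEX264 were taken. The result of 1 list gene is counted but not reported here. Other genes of lists with 5 or fewer calls, and neighbours of TEX264, were named after their values were seen. Coordinates are from GENCODE release 44 (62639 of 62703 identifiers found) and promoters from RefSeq. Alternatives were limma-trend (limma 3.58.1), DESeq2 1.42.0 and its size factors, library totals, the replicate number as a block, no filter or a minimum of 10 counts in every library, a fit per line, a fit with PC3, thinning to the smallest total, and each library left out.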

Additional observations from a re-analysis of the deposited data

Results flagged for a closer look

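The inhibitor effect on TEX264 differed between the lines by -1.22 on the log2 scale (LNCaP minus 22Rv1), with 0.00064 in LNCaP and 1.22 in 22Rv1. It is listed because the fitted effects of 2 cell lines under the same contrast were apart (SE of the difference 0.22). TEX264 was chosen on its inhibitor response in these libraries. Setting the difference against this SE is therefore no test, and it is given as a description.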

How the results depend on the processing

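No inhibitor call was made for the 6 other receptors under any alternative, and TEX264 kept its direction in 22Rv1 and between the untreated lines under all of them. The TEX264 change in LNCaP was -0.32, and its difference between lines -1.56, with all libraries thinned to the smallest total. Of the 7 receptors compared between untreated lines, 1 was called after thinning and 1 by DESeq2, in place of 2, 3 with PC3 added, and 1 to 2 with a library left out. Without a filter the 2 were TEX264 and CCPG1, and RETREG2 did not pass (adjusted p = 0.0624). Genes called in LNCaP (196) became 122 with at least 10 counts in every library, 119 thinned, 90 by DESeq2 and 41 by limma-trend, and 87 to 239 with a library left out. Those in 22Rv1 (404) became 260 without a filter, 268 thinned, 242 by DESeq2 and 201 by limma-trend, and 158 to 446. Those for the difference (52) became 29 with at least 10 counts, 22 thinned and 5 by limma-trend, and 24 to 57. Those between untreated lines (3473) became 1503 with at least 10 counts and 2049 thinned. The fits without a filter (21395 genes), with at least 10 counts and after thinning tested other sets of genes than the 7086. A lower count there is therefore not by itself a loss of calls. Changes near 0 turned sign without becoming calls. In 22Rv1 these were ATL3 with DESeq2 size factors (0.0064), RETREG1 with library totals (-0.13), without a filter (-0.047) and with the line alone (-0.013), RETREG2 with library totals (-0.026) and RETREG3 thinned (-0.087). For the difference they were RTN3 with at least 10 counts (0.022) and thinned (0.023) and RETREG1 thinned (-0.0040). Between untreated lines they were RETREG3 with library totals (-0.19), SEC62 thinned (0.072) and ATL3 thinned (0.20). With a library left out, the ranges were -0.15 to 0.18 (ATL3), -0.12 to 0.23 (RETREG1), -0.14 to 0.31 (RETREG2) and -0.21 to 0.41 (RETREG3) in 22Rv1, -0.18 to 0.39 (RETREG1) in LNCaP, -0.18 to 0.39 (RETREG1) and -0.18 to 0.031 (RTN3) for the difference, and -0.15 to 0.10 (ATL3), -0.17 to 0.28 (RETREG3) and -0.21 to 0.064 (SEC62) between untreated lines. The cause was not tested. With library totals the median change of all genes was -0.08 in LNCaP, -0.14 in 22Rv1 and -0.24 between untreated lines, against 0.00076, 0.0025 and -0.03 with TMM, and the split of rises and falls went from 294 and 110 to 144 and 231 in 22Rv1. The deviations of same-numbered libraries had r of 0.17, -0.01 and 0.20 in LNCaP and -0.0039, -0.03 and 0.04 in 22Rv1, not above 0.1 in every pair, and the best match was the own number for replicates 1 and 3 of LNCaP and 3 of 22Rv1 only, so the numbers were not taken to pair the samples. With the replicate number as a block, 240, 450, 68 and 3507 genes were called in LNCaP, 22Rv1, the difference and between untreated lines, and the receptors' counts of calls stayed at 0, 0, 0 and 2. At 3.27 to 12.9 CPM of floor, CCPG1 and CALCOCO1 could not be judged for the inhibitor.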
